A study of Salmo salar with 96 samples.

Results

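The *egr1* and *gadd45b* genes of Atlantic salmon (*Salmo salar*) were followed through development, across tissues and between wild and hatchery parr, the freshwater juveniles. The panel measured 220 genes by direct counting of barcoded probes (nCounter) in 96 samples. Of these, 6 genes had a symbol that starts with EGR1 (*egr1a*, *egr1b*, *egr1c* and *egr1d*) or GADD45B (*gadd45ba* and *gadd45bb*). They were selected on the difference between wild and hatchery parr in these same samples, so that comparison is given as a description, with no test. Values are normalized counts, that is, raw counts scaled in each sample by 6 reference genes, and a level of 20 was the background threshold.

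EGR1 is a zinc finger transcription factor of the immediate early class. Its mRNA is made within minutes when a cell meets a growth factor, a hormone, nerve activity or stress, and in the mammalian pituitary it links gonadotropin-releasing hormone to the luteinizing hormone beta gene. GADD45B is a small stress- and cytokine-inducible protein which in mammals acts on the p38 and JNK kinase pathways and takes part in DNA demethylation. The letters a to d mark copies of a gene, which salmonids often carry after a whole genome duplication in their ancestry. RefSeq (Ssal_v3.1) places the 6 genes on 6 different chromosomes and names *egr1a* as *egr1*, while the other 5 carry only LOC symbols.

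The wild parr were 4 males caught by electrofishing in the Inarijoki river, of which 2 were mature (fish 7 and 8) and 2 immature (fish 5 and 6). The hatchery parr were 2 females (fish 3 and 4) and 2 males (fish 1 and 2) of the Neva strain, all immature. All parr were 3 years old, and most fish gave several tissues, 28 wild and 46 hatchery samples in all. Hatchery parr had been reared under standard farm conditions. The early samples, all of the hatchery strain and freed of yolk up to the alevin, were 4 whole embryos at 186 degree-days (°d, days times temperature), 4 at 258 °d, 4 alevin at 436 °d and 6 fry. The fry were 2 at 1119 °d on normal feed and, at 1320 °d, 2 on a low-fat and 2 on a normal diet, reared at another station than all younger samples. Blood was taken at 2212 °d from 2 fry on the low-fat and 2 on the normal diet.

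Total counts were 47598 to 949899 in tissue samples and 201761 to 480697 in whole samples. Wild and hatchery parr shared none of the 8 cartridges, so cartridge, river of origin, rearing and capture cannot be told apart from habitat, and neither in part can sex and maturity. In samples of whole tissue, fewer cells of a type and less RNA per cell cannot be told apart. The scaling factor was above 3.0 in 2 samples, the liver of wild fish 5 (6.73) and the muscle of hatchery fish 4 (6.22). The paper removed 2 samples for factors above 3.0, while both samples were kept here. Tissue labels were checked against markers. *Rtn1* was highest in brain, *spp2* in liver, *six3a* in eye and *fshr* in testis, while adipose tissue had the highest level of none of the 3 *pparg* copies measured.

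Of the 6 genes, *egr1a* and *gadd45bb* were at 20 or more in 96 of 96 samples. *Egr1b* reached this level in 95 samples, *gadd45ba* in 93 and *egr1d* in 74. *Egr1c* reached it in 7. Set against each sample's own 8 negative control probes (their mean plus 2 SD), *egr1c* stood above in only 5 samples and *egr1d* in 57, so the low values of both lie close to the noise of the assay. *Gadd45ba* stood above in 80. For it this held in 2 of 4 embryos at 258 °d, 3 of 4 alevin, 2 of 4 hatchery adipose samples and 1 of 3 hatchery skins.

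*Egr1a* separated wild from hatchery parr most widely. Every wild sample was above every hatchery sample in all 7 tissues that had 3 or 4 fish of each kind (eye, gill, heart, kidney, liver, muscle and skin), with fitted log2 fold changes of 1.47 to 3.97. *Gadd45bb* and *gadd45ba* were higher in wild parr without overlap in 5 tissues each, and *egr1b* in 3. *Egr1d* ran the other way. It was lower in wild parr without overlap in 3 tissues and higher in none. Of the 36 pairs of gene and tissue that reached the background level, 20 were higher and 3 lower in wild parr with no overlap, beside 45% of all pairs of gene and tissue on the panel (508 of 1130). Nothing is read from these counts, since the genes were chosen on this contrast.

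**Figure D1:**
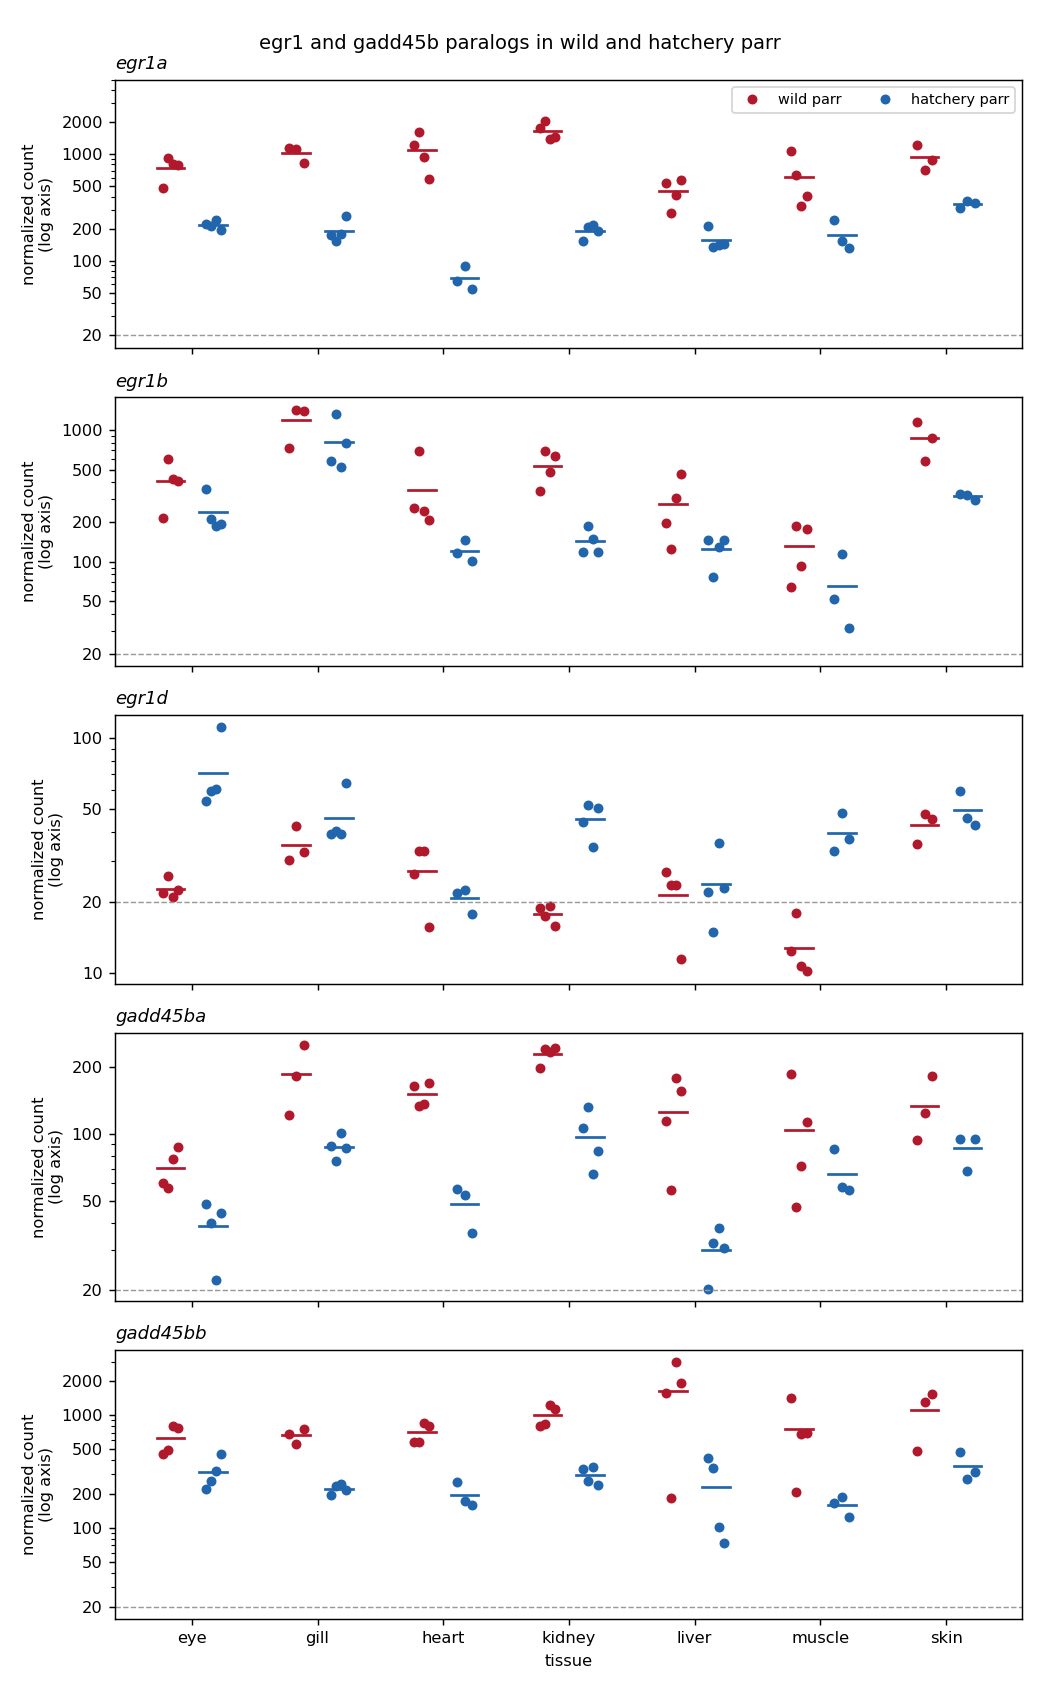
Normalized counts (log axis) of *egr1a*, *egr1b*, *egr1d*, *gadd45ba* and *gadd45bb* in 7 tissues of wild (red) and hatchery (blue) parr. Points are single fish, lines are means and the dashed line is the background level of 20. *Egr1a* is higher in wild parr in all 7 tissues, while *egr1d* is lower in eye, kidney and muscle.

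The heart showed the widest gap. *Egr1a* had 1206, 1618, 946 and 585 normalized counts in hearts of wild fish 5 to 8, against 64.0, 88.8 and 54.6 in hatchery fish 1 to 3. The lowest wild heart was thus well above the highest hatchery heart, and the ratio of means was 15.8. *Gadd45bb* had 574 to 862 in wild and 158 to 253 in hatchery hearts, *gadd45ba* 134 to 170 and 35.8 to 56.7, and *egr1b* 207 to 685 and 100.2 to 146. In *egr1b* wild fish 6 stood alone at 685, and the other wild hearts did not exceed 254. *Egr1d* overlapped. These 4 of 5 genes without overlap compare with 43.1% of the 137 genes measured in heart, a share from which nothing is read, since the genes were chosen on this contrast. The genes of the liver list also differed between wild and hatchery hearts. In hatchery tissues *spp2* was by far highest in liver, but *apoc1a* was highest in testis and *apoc1b* second highest there. *Apoc1a*, *apoc1b* and *spp2* together had 3089 to 87530 normalized counts in wild and 333 to 546 in hatchery hearts. Their part in the result was not tested.

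Kidney held the highest *egr1a* value of the series. Wild fish 5 to 8 had 1761, 2048, 1399 and 1462 normalized counts, against 153, 208, 215 and 190 in hatchery fish 1 to 4. Both groups were tight, and the ratio of means was 8.71. *Egr1b* averaged 534 ± 155 in wild and 143 ± 33.2 in hatchery kidney (SD, n = 4 each), *gadd45bb* 1000 ± 209 and 296 ± 54.6, and *gadd45ba* 230 ± 21.3 and 97.2 ± 28.4. *Egr1d* was lower, at 15.8 to 19.2 in wild and 34.4 to 51.9 in hatchery kidney. All 5 genes at the background level were thus without overlap, beside 53.7% of 147 genes. The 3 *pparg* copies summed to 20.3 to 46.4 in wild and 87.6 to 686 in hatchery kidney. The 3 genes of the liver list summed to 1742 to 7603 and 238 to 3095.

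In liver, *gadd45bb* varied more than any other gene of the set. It had 1568, 184, 2954 and 1936 normalized counts in wild fish 5 to 8, against 415, 341, 102 and 73.1 in hatchery fish 1 to 4. Wild fish 6 fell among the hatchery livers, while the other 3 wild livers were all above them. The liver of fish 5 is the one with the large scaling factor. *Egr1a* was 279 to 569 in wild and 134 to 209 in hatchery liver. *Gadd45ba* was 55.9 to 179 in wild and 20.1 to 37.7 in hatchery liver, a ratio of means of 4.18. It was above the limit of the negative controls in 3 of 4 wild and 2 of 4 hatchery livers. *Egr1a* and *gadd45ba* were the 2 genes without overlap, beside 27.6% of 163 genes. *Egr1d* was near the background level in both. The 3 genes of the liver list summed to 695200 to 1886000 in wild and 439600 to 501700 in hatchery liver.

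Muscle resembled liver in that wild fish 6 had the lowest wild values of both *gadd45b* genes. In *egr1b* the same fish had the highest wild muscle value, 187. *Gadd45bb* had 1418, 208, 685 and 699 normalized counts in muscle of wild fish 5 to 8, against 166, 189 and 124 in hatchery fish 1, 3 and 4. *Egr1a* had 1066, 640, 329 and 407 in the same wild fish, against 243, 151 and 131. Neither gene overlapped between the kinds of fish. *Egr1d* was 10.2 to 18 in wild and 32.9 to 48.0 in hatchery muscle. *Egr1b* and *gadd45ba* overlapped, so that 3 of 5 genes did not, beside 41.1% of 158 genes. The 3 *pparg* copies summed to 19.6 to 34.3 in wild and 112 to 199 in hatchery muscle.

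In gill, *egr1a* was 831 to 1142 in wild and 152 to 263 in hatchery fish. *Gadd45bb* was 555 to 756 in wild and 195 to 248 in hatchery gill, and *gadd45ba* 123 to 252 and 75.9 to 101. *Egr1b* was high in gill of both kinds and overlapped, with 723 to 1425 in wild and 522 to 1326 in hatchery fish. The count was 3 of 6 genes, beside 36.3% of 201 genes. The 3 *pparg* copies summed to 148 to 236 in wild and 279 to 413 in hatchery gill. *Egr1c* also overlapped in gill. Both hatchery females had more of it than all other gills, with 66.0 and 51.9, while hatchery males had 6.03 and 8.44 and wild males 5.33 to 16.3.

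Skin had the smallest *egr1a* ratio of means, 2.76, and eye a ratio of 3.44, close to that of muscle at 3.49. In skin, *egr1a* was 711 to 1220 in wild and 313 to 364 in hatchery fish, and *egr1b* 577 to 1150 and 294 to 325. *Gadd45bb* had 1309 and 1537 in mature wild skin and 484 in the 1 immature wild skin, fish 6, just above the highest hatchery skin at 477. Among immature fish alone its log2 fold change in skin was 0.45, against 1.65 in all. These 3 of 5 genes compare with 64.1% of 153 genes in skin. The 2 genes of the brain list, *rtn1* and *slc38a6*, summed to 122 to 170 in wild and 525 to 1052 in hatchery skin. In eye, *egr1a* was 486 to 912 in wild and 196 to 240 in hatchery fish, *gadd45ba* 57.1 to 87.7 and 22.1 to 48.5, and *egr1d* 21.1 to 25.9 and 54.0 to 111. Here 3 of 5 genes did not overlap, beside 52% of 171 genes. The 9 genes of the eye list, most of which were not highest in eye, summed to 1203 to 1418 in wild and 217 to 485 in hatchery eyes. The part of these marker differences in the results was not tested in any tissue.

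*Egr1d* needs a caution in the tissues where it was lower. In wild eye, kidney and muscle, 5 of 12 samples were above the limit set by their negative controls, against 9 of 11 in hatchery fish. In muscle this was 1 of 4 wild and 1 of 3 hatchery samples, so the muscle values were mostly at background in both. Scaling also mattered. The median log2 fold change of all genes was -0.70 in kidney, -0.54 in muscle and -0.19 in eye, and under the trimmed mean of M-values (TMM) the *egr1d* value moved to -0.71 in kidney and to -0.95 in muscle, against -1.34 and -1.61. In gill and skin, where *egr1d* overlapped, TMM turned its sign (0.21 and 0.42, against -0.37 and -0.22).

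Other genes that respond quickly to hormones and stress were on the panel, a list of 12: 3 *adm*, 2 *cebpb*, 2 *cebpd*, 4 *klf15* copies and *snai1*. CEBPB and CEBPD are transcription factors of the acute phase response. In heart, 4 of 9 measured were above hatchery fish and 1 below without overlap, beside 43.1% of all genes. The list median there was 1.22 on the log2 scale, against 0.00 for all genes. The largest were *cebpba* (3.17), *cebpdb* (2.32) and *cebpda* (2.21). Both *cebpd* copies were also higher without overlap in wild gill, kidney, liver and skin, by 0.95 to 2.79. Over the 7 tissues, 2 to 4 genes of the list were above and 0 to 3 below. In eye, 2 of 10 were above and 1 below, beside 52% of all genes without overlap. The counts above and below were 3 and 0 of 11 in gill (36.3%) and 2 and 3 of 11 in kidney (53.7%). They were 2 and 0 of 11 in liver (27.6%), 2 and 1 of 9 in muscle (41.1%) and 4 and 0 of 9 in skin (64.1%). In kidney 3 were below, led by *klf15b* (-2.65), and the list median equalled that of all genes. Their tests are not given here.

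The wild fish differed among themselves. In *gadd45bb*, mature fish were above immature fish in 6 of 7 tissues, all but muscle. Gill came from only 1 mature fish, fish 7, and skin from only 1 immature fish, fish 6. Of the 5 tissues with all 4 fish, *gadd45bb* was higher in mature fish in 4. In heart, mature fish had 862 and 803 normalized counts and immature fish 577 and 574. In kidney, mature fish had 1223 and 1133 and immature fish 803 and 840. *Egr1a* was ordered the other way in 5 of 7 tissues, and in 3 of the 5 with all 4 fish. In muscle, for example, mature fish had 329 and 407 and immature fish 1066 and 640. Averaged over the 5 tissues that all 4 wild fish had, mature minus immature was 0.86 for *gadd45bb* and -0.38 for *egr1a* on the log2 scale. Without immature fish 6 the *gadd45bb* difference was 0.29. *Egr1d* was also lower in mature fish (-0.32), a difference that was -0.09 without mature fish 8. These 3 of 5 genes had both mature fish on one side of both immature fish, as had 34.5% of 194 genes. With 2 fish of each kind no exact permutation test can go below p = 0.333. All samples of immature fish 5 were on 1 cartridge and all of mature fish 8 on another. Fish 6 and 7 shared a cartridge in heart, kidney, liver and muscle. Maturity can thus only in part be told apart from cartridge.

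**Figure D2:**
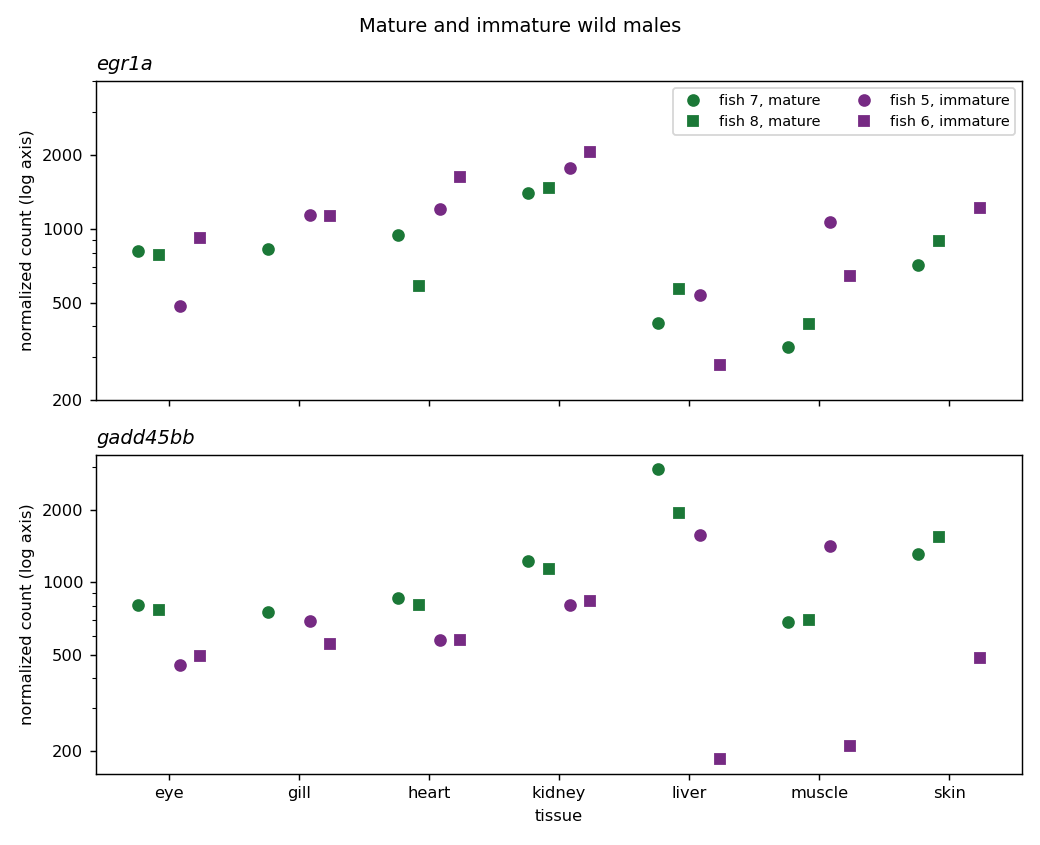
Normalized counts (log axis) of *egr1a* and *gadd45bb* in 7 tissues of mature (green) and immature (purple) wild males, where each point is 1 sample. *Gadd45bb* is higher in each mature fish than in the immature fish except in muscle, and immature fish 6 is lowest in liver (184) and muscle (208). Gill has only 1 mature and skin only 1 immature fish.

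Among hatchery parr, 2 of 6 genes had females and males apart over the 7 tissues that all 4 fish had, beside 45.1% of 213 genes. *Egr1a* was 0.36 higher in females than in males on the log2 scale, and *gadd45ba* 0.13 lower (-0.13). Each of the 4 cartridges with hatchery parr held mostly samples of a single fish (12 of 12, 10 of 10, 11 of 12 and 9 of 12). Differences between hatchery fish, and so between the sexes, cannot be told apart from cartridge. In liver *gadd45bb* was lower in females, at 102 and 73.1, than in males, at 415 and 341.

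Development offered a contrast that played no part in the choice of the genes. *Egr1a* rose at each step. It had 48.4, 55.7, 45.4 and 50.5 normalized counts at 186 °d, 99.2, 73.8, 60.6 and 76.8 at 258 °d, and 201, 216, 209 and 225 in alevin. Fry had 353 and 383 at 1119 °d and 533, 515, 371 and 296 at 1320 °d. No stage overlapped the next. The log2 fold changes were 0.63 ± 0.18 (SE), 1.46 ± 0.17 and 0.95 ± 0.15, with adjusted p = 0.0112, 4.25e-06 and 2.44e-05 (edgeR's quasi-likelihood test, Benjamini-Hochberg over 178 genes). The first step was less firm than the others, with adjusted p = 0.0651 under DESeq2 and 0.0524 without the first 258 °d embryo.

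**Figure D3:**
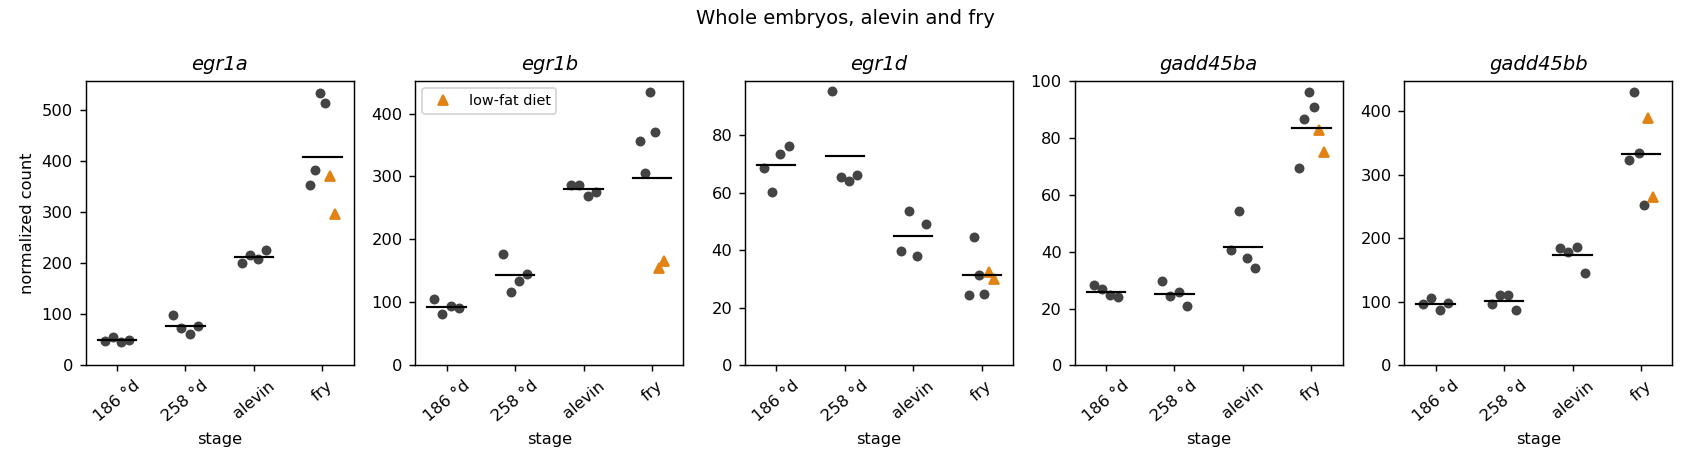
Normalized counts of 5 genes in whole embryos at 186 and 258 °d, alevin and fry. Points are samples, lines are stage means and triangles are the 2 fry on a low-fat diet. *Egr1a* climbs at every step, *egr1d* falls after 258 °d, and among fry those on the low-fat diet are lowest in *egr1b*.

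Between 258 °d and alevin all 5 genes at the background level changed, 4 upward and 1 downward, beside 48.9% of all genes. *Egr1b* averaged 143 ± 25.4 at 258 °d and 280 ± 8.78 in alevin (SD, n = 4 each), a log2 fold change of 0.97 ± 0.25 (adjusted p = 0.00329). *Gadd45bb* averaged 101 ± 11.1 and 174 ± 19.6, and *gadd45ba* 25.2 ± 3.69 and 41.7 ± 8.83. Their log2 fold changes were 0.79 ± 0.16 and 0.75 ± 0.17. *Egr1d* fell by 0.69 ± 0.19 on the log2 scale (adjusted p = 0.00541), with 63.9 to 95.2 at 258 °d and 37.9 to 53.5 in alevin.

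In the step before, from 186 to 258 °d, *egr1a* was the 1 gene of 5 that changed, beside 32% of all genes. *Egr1b* had 80.8 to 106 at 186 °d and 116 to 177 at 258 °d, with no overlap, and a log2 fold change of 0.61 ± 0.25 that did not pass (adjusted p = 0.073). With the low-fat fry left out of the fit it passed (adjusted p = 0.00122). *Gadd45bb*, *gadd45ba* and *egr1d* had fold changes between -0.05 and 0.06 with SE of 0.15 to 0.17. In the step from alevin to fry, 3 genes rose and 1 fell, beside 62.9% of all genes, most of which fell (80 of 112). *Gadd45bb* averaged 174 ± 19.6 in alevin and 332 ± 69.1 in 6 fry, and *gadd45ba* 41.7 ± 8.83 and 83.6 ± 9.94, with log2 fold changes of 0.93 ± 0.14 and 0.99 ± 0.15 (adjusted p = 1.07e-05 and 9.71e-06). *Egr1d* fell by 0.52 ± 0.18 (adjusted p = 0.0201). TMM scaling ended this last call (-0.20, adjusted p = 0.40), as did the cartridge block (adjusted p = 0.215), and TMM moved the median of all genes by 0.32.

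Of the other inducible genes, 10 reached the background level in whole samples. From 258 °d to alevin 5 rose and 0 fell, beside 48.9% of all genes, led by *cebpdb* (1.86) and *cebpda* (1.45), with a list median of 0.58 against 0.19 for all genes. From alevin to fry 3 rose and *snai1*, a repressor that drives cells out of epithelia, fell by 1.75, beside 62.9%.

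*Egr1b* had no clear change from alevin to fry, at 0.10 ± 0.22 on the log2 scale, and the fry split by diet. At 1320 °d it had 155 and 166 normalized counts in fry on the low-fat diet, against 434 and 371 on the normal diet. The 1119 °d fry, on normal feed, had 356 and 305. In a fit of the 18 whole samples with the fry split by age and diet, the difference was -1.32 ± 0.17 on the log2 scale (adjusted p = 6.57e-05 over 183 genes). *Egr1a* was lower too, with 371 and 296 in low-fat fry against 533 and 515 in normal fry, a difference of -0.65 ± 0.15 (adjusted p = 0.0145). These 2 of 5 genes compare with 5.46% of all genes, 10 of 183. Without 1 of the 4 fry at a time the *egr1a* call was lost without normal-diet fish 3 (adjusted p = 0.0605) and without low-fat fish 6 (0.111), while *egr1b* passed in each of these fits. The lone fish left on a diet is then assumed to vary like the other groups. *Gadd45bb* had 390 and 265 in low-fat and 334 and 252 in normal fry, and no other gene of the set passed. With the low-fat fry left out, *egr1b* also rose from alevin to fry, by 0.39 (adjusted p = 0.0113). Each diet was given to 2 fry, and where nothing says that they came from separate tanks, p-values measure the spread between these samples, pooled over the stages.

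In blood no diet difference passed the test. *Egr1b* had 26.6 and 33.3 in low-fat and 17.96 and 63.3 in normal fry blood, values close to the background. *Gadd45bb* was by contrast abundant in blood, with 476 and 584 in low-fat and 453 and 866 in normal fry. By edgeR 0 of 100 genes differed, 0%, and 3 had an unadjusted p under 0.05, none of them among these 4 genes. With the other scaling tried, TMM, the count of these genes was also 0. Whether the diet difference in *egr1b* differs between whole fry and blood was not tested.

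The tissues of hatchery parr, each set against the mean of the other 13, differed in 39 of 84 tests of these genes, beside 53.9% of the tests of all genes (1644 of 3052). The 39 include calls of *egr1c* in gill, brain and heart, although its mean reached the background level in gill alone. Testis and ovary counted as separate tissues, and both fin samples came from 1 fish, so fin has no check across fish. Tissue samples of the same fish are not independent, and with the fish as a block 37 tests passed. The hatchery samples of eye, gill, heart, kidney, liver, muscle and skin had also served in the choice of the genes. They are also part of the mean against which spleen, fin and the other tissues were set. These tests are therefore not independent of that choice.

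**Figure D4:**
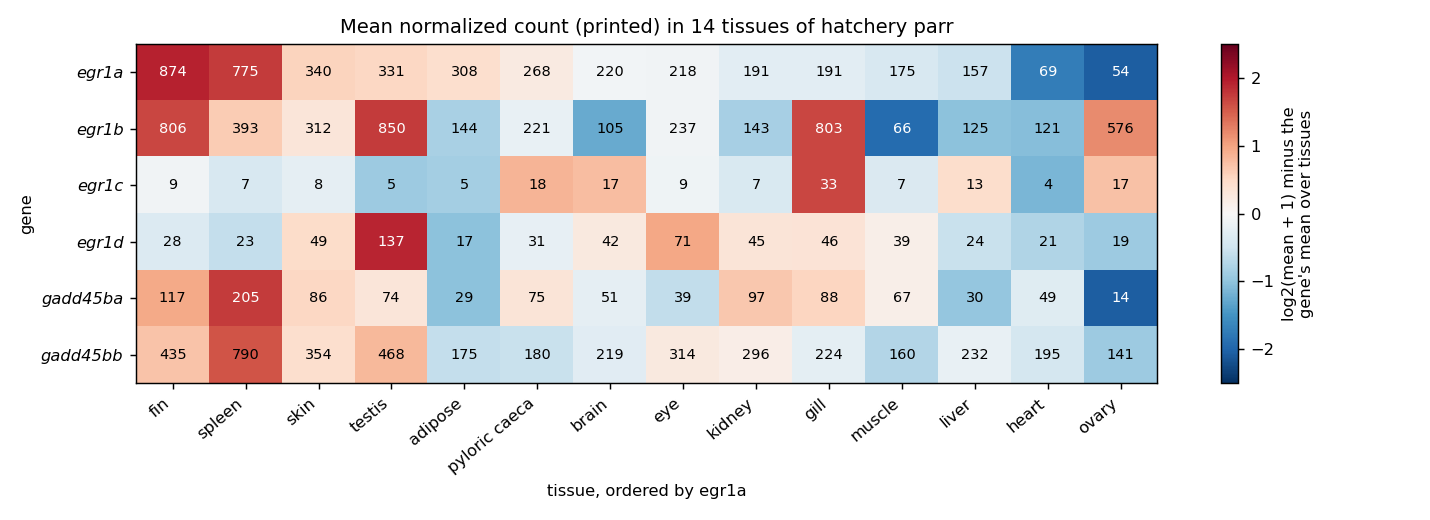
Mean normalized count (printed) of 6 genes in 14 tissues of hatchery parr, coloured by log2(mean + 1) minus the mean of that gene over the tissues. Spleen and fin are high for *egr1a* and both *gadd45b* genes, ovary is low for them, and *egr1b* peaks in testis, fin and gill.

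Spleen, a blood-forming and immune organ of fish, was the tissue where most of the set was high. *Gadd45ba* had 185, 252 and 177 normalized counts there, above every other tissue sample of hatchery parr, and *gadd45bb* 588, 998 and 784, again above all others of these parr. *Egr1a* had 461, 1174 and 691. The log2 differences from the other tissues were 1.90 ± 0.19 for *gadd45ba*, 1.70 ± 0.22 for *gadd45bb* and 1.89 ± 0.22 for *egr1a* (adjusted p = 9.71e-11, 4.90e-08 and 3.15e-09). The other tissues include those whose hatchery samples had served in the choice of the genes, so these differences are not independent of it. With *egr1b* 4 of 6 genes passed in spleen, beside 54.1% of 218 genes, whose median was -0.63. Fin also had 4, all higher, beside 36.7%. There *egr1a* had 1069 in the adipose fin and 679 in the tail fin, a log2 difference of 2.07 ± 0.26. The calls of *egr1b* in spleen and of both *gadd45b* genes in fin were weaker. *Egr1b* no longer passed without the spleen of fish 3 (0.27, adjusted p = 0.528), nor did *gadd45ba* and *gadd45bb* in fin under TMM (adjusted p = 0.0673 and 0.392).

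*Egr1b* had an order of its own. Testis (1045 and 655), fin (807 and 806) and gill (577, 1326, 522 and 788) were highest and overlapped each other, and muscle (51.8, 114 and 31.1) was lowest. Its log2 difference was 1.87 ± 0.29 in testis and 1.79 ± 0.22 in gill, and it fell by 1.99 ± 0.37 in muscle, by 1.37 ± 0.29 in brain and by 1.11 ± 0.29 in liver. Gill called 3 of 6 genes, beside 62.4%, testis 3 (40.4%), muscle 2 (56.4%), brain 2 (72%) and liver 3 (61.5%). Among the gill calls was *egr1c* (1.89 ± 0.35), whose mean reached the background level in gill alone, through both females. It entered the test through that tissue, so nothing is read from this call. *Egr1c* was also among the brain calls (0.96 ± 0.37), at a mean of 17.3, below the background level. The gill, muscle and liver samples had also served in the choice of the genes. TMM ended the calls of *gadd45ba* in gill (0.11, adjusted p = 0.698), *gadd45bb* in muscle and in testis, and *egr1a* in liver.

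*Egr1d* was highest in testis, where fish 2 had 220 and fish 1 had 53.6, and next in eye, at 54.0 to 111. The testis difference (2.09 ± 0.32, adjusted p = 9.14e-07) rested on fish 2 and was lost without it (adjusted p = 0.329). Mature wild testes had 291 and 119. In eye *egr1d* was higher by 1.08 ± 0.26 and *gadd45ba* lower by 0.69 on the log2 scale, 2 of 6 genes beside 39%. These eyes had also served in the choice of the genes, so both calls depend on that choice. Without fish 4 the eye call of *egr1d* was lost (adjusted p = 0.056).

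Heart and ovary were low. *Egr1a* had 54.6 to 88.8 in hatchery heart and 46.3 and 62.6 in ovary, below every other tissue sample of hatchery parr. It fell by 1.86 ± 0.32 in heart, where 4 of 6 genes passed beside 73.4% of all genes, and by 2.24 ± 0.40 in ovary, where 5 passed beside 67%. The heart value was a hatchery one, and these hearts had also served in the choice of the genes. With wild hearts in the fit and a habitat term the difference was -0.45 (adjusted p = 0.171). The other heart calls, of *egr1b*, *egr1c* and *egr1d*, all lower, did not pass under TMM, and *egr1c* was below background there. In ovary *gadd45ba* had 16.5 and 10.8, below the background level, and *egr1b* was higher than elsewhere (1.27 ± 0.31). The calls of *egr1d* (adjusted p = 0.0498, with neither ovary above the negative limit) and *gadd45bb* were lost with 4 reference genes (-0.37 and -0.34, adjusted p = 0.507 and 0.419). That of *egr1d* also did not pass with the muscle of fish 4 left out of the fit (adjusted p = 0.053). The ovary value of *egr1b* hung on the scaling, since TMM brought it to 0.00 while moving the median of all genes by -1.23.

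In adipose tissue 4 of 6 genes passed, all lower, beside 68.8%. None of these 4 passed under TMM, where *gadd45ba* came closest (-0.52, adjusted p = 0.0723). In kidney *gadd45ba* was higher by 0.75 ± 0.19 and *egr1b* lower by 0.90 ± 0.28, 2 of 6 beside 39.9%. With a habitat term the kidney value of *egr1b* was -0.34 (adjusted p = 0.252), and it did not pass without fish 1 (0.0945). In skin *gadd45ba* alone passed (0.57 ± 0.22, lost under TMM with adjusted p = 0.0805), beside 39%. The kidney and skin samples had also served in the choice of the genes. In pyloric caeca 0 of 6 passed in edgeR, beside 43.6%. There 2 had an unadjusted p under 0.05, TMM and DESeq2 called 1 each, 4 reference genes called 2 and limma 0. *Egr1c* rose above its controls in 5 hatchery samples, the gills of both females and the brains of fish 1, 2 and 4 (7.79, 23.1 and 22.9).

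Ovary differed from immature testis of hatchery parr in 4 of 5 genes, all lower in ovary, beside 73.7% of 190 genes. *Egr1a* had 46.3 and 62.6 in ovary against 475 and 187 in testis (-2.60 ± 0.59, adjusted p = 0.00599), and *gadd45bb* 127 and 155 against 531 and 406 (-1.73 ± 0.32, adjusted p = 0.00238). *Gadd45ba* and *egr1d* were lower by 2.43 ± 0.52 and 2.88 ± 0.83. *Egr1b* had 535 and 617 in ovary against 1045 and 655 in testis, and did not pass (adjusted p = 0.144). The median of all genes ran the other way (0.47). TMM scaling moved this median by -0.77, and *egr1b* then passed as lower in ovary (-1.33, adjusted p = 0.00595). Without the ovary of fish 3, *egr1a* no longer passed (-2.40, adjusted p = 0.0648). *Egr1d* was lost without the testis of fish 2 (-1.52, adjusted p = 0.104), the ovary of fish 3 (-2.46, 0.127) or the ovary of fish 4 (-3.45, 0.0664). The lone gonad left in such a fit is assumed to vary like the other gonads.

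The tissue patterns of *egr1a* and of both *gadd45b* genes were alike. Over the 14 means of log2 values in hatchery tissues, Pearson's r was 0.77 between *egr1a* and *gadd45bb*, 0.74 between *egr1a* and *gadd45ba* and 0.74 between both *gadd45b* genes. It was 0.32 between *egr1a* and *egr1b* and 0.20 between *egr1a* and *egr1d*. These are descriptions over tissues that share fish, cartridges and scaling. Of the other genes, *snai2b* (0.76) and *cebpda* (0.68) were nearest to *egr1a*, *kdm5bd* (0.80) and *foxo1a* (0.79) to *egr1b*, and *lhr* (0.78) and *prkar2ab* (0.74) to *egr1d*. For *gadd45ba* they were *epsti1* (0.84) and *tnfsf11* (0.62), for *gadd45bb* *arhgap6d* (0.68) and *prkar1bb* (0.66), and for *egr1c*, mostly at background, *glha1* (0.85) and *gnrhr4a* (0.75).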

How the data were processed

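Raw counts of 220 genes and of 8 negative and 6 positive control probes were deposited by the authors for 96 samples. The deposited normalized signal of 211 genes had been made by the authors in nSolver from these counts, by scaling to the geometric mean of 6 reference genes. Raw counts times this factor gave the deposited signal to within 0.0094% over 7426 values of 100 counts or more. The genome build behind the probes was not given in the sources used here. All 6 genes were matched to RefSeq (Ssal_v3.1) by accession.

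Raw counts were fitted with edgeR 4.0.16 (glmQLFit, glmQLFTest, R 4.3.3), with the log of the factor as offset and genes with a mean of 20 normalized counts or more in at least 1 group. P-values were adjusted by Benjamini-Hochberg over all genes tested in a comparison, with a threshold of 0.05. Stages, hatchery tissues, gonads and diet were tested. Wild and hatchery parr were only described. Overlap means that the ranges of single samples overlap. DESeq2 1.42.0 and limma 3.58.1 on log2(normalized count + 1), other scalings, no filter, subtraction of the negative controls, blocks and leaving out samples were alternatives. The functions were tested on simulated data. In the closest pair of replicates the squared differences were 4.57 times what counting noise alone gives (chi-square per degree of freedom). All columns were mapped, and 0 were left out.

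The genes, lists and comparisons were chosen with earlier results of these data known. All 6 genes are named, with the 2 nearest genes each by tissue pattern and up to 3 genes of a list per comparison. Lists of gonadotropin, matrix and reference genes were also counted. Of the 6 reference genes, 3 rose and 2 fell from alevin to fry, beside 62.9% of all genes. In ovary 3 were higher and 3 lower than in the other tissues, beside 67%. From 186 to 258 °d 0 changed, beside 32%. Some reference genes also separated wild from hatchery parr without overlap. In skin 2 were above and 3 below (64.1% of all genes), in kidney 3 and 1 (53.7%) and in liver 1 and 2 (27.6%). The counts above and below were 1 and 0 in eye (52%) and 1 and 1 in gill (36.3%). They were 0 and 1 in heart (43.1%) and 0 and 1 in muscle (41.1%). Replicate numbers of the stages number separate whole animals and so do not pair samples, while hatchery tissues are paired by fish. Same-numbered stage samples had a mean r of 0.08 (12 pairs, 5 above 0.1), against -0.03 for other pairs. Tissues of the same hatchery fish had a mean r of 0.07, against -0.02. This correlation thus does not tell paired from unpaired samples.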

Additional observations from a re-analysis of the deposited data

Results flagged for a closer look

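In 8 of 86 groups of 4 to 10 samples, 1 sample lay further from the others than Dixon's 95% limit, and chance alone gives about 1 in 20 such groups. In fish 4 of the hatchery parr, *egr1a* had 575 normalized counts in adipose tissue and *egr1b* 238, while the other 3 fish did not exceed 242 and 120. The same fish had the highest *egr1d* in eye (111, others up to 60.4) and in gill (64.1, others up to 40.2). Hatchery fish 1 stood apart in *egr1b* in eye (358, others up to 212) and in *egr1a* in liver (209, others up to 144). Wild fish 6 stood apart in *egr1b* in heart (685, others up to 254). The first embryo at 258 °d had 95.2 of *egr1d*, and the other 3 had 63.9 to 66. Causes of these values were not tested.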

How the results depend on the processing

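From 186 to 258 °d the count of 1 gene changed with the setting. It was 0 under DESeq2, 2 with the replicate number as a block and 2 with the low-fat fry left out, and 0 to 2 with 1 sample left out. The numbers do not pair these samples, so the block says little there. The alevin step gave 5 in each leave-one-out fit, the fry step 3 to 4, ovary against testis 2 to 4, diet in whole fry 1 to 2 and diet in blood 0. The 39 tissue calls became 29 under TMM and under DESeq2, 28 with negative controls subtracted, 30 with a habitat term, 37 with the fish as a block and 29 to 33 with 1 fish left out. The 23 pairs without overlap between wild and hatchery parr became 25 with 4 reference genes, 26 among males, 25 among immature fish and 23 to 27 with 1 fish left out. Leaving fish out can only keep or raise such a count. DESeq2 turned 2 signs, *gadd45ba* in gill (-0.146, adjusted p = 0.608) and *egr1d* in heart (0.0428, adjusted p = 0.923). The cause was not tested. Of the other tested fold changes over all settings, 862 stayed on their side of the threshold, called or not, 120 lost a call and 8 gained one. No cartridge held both kinds of parr, so no value within a cartridge could be had. A random cartridge block and leaving out each fish in the comparison by maturity were chosen after seeing the data. The block lies within habitat and cannot take up its difference. Low counts limit *egr1c* and *egr1d*, and *gadd45ba* in several groups.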
